A study of Mus musculus with 7 samples.

Results

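The genes described here are 33 nuclear receptors outside the core loop of the circadian clock, a set listed by name with no threshold on their values, although earlier results of these data were known when it was drawn up. For each gene the probe set carrying that symbol alone was taken. Of the 33 genes, 32 had such a probe set, none had more than 1, and the level of Nr1h2, which had none, was not analysed here. On the array, 21789 of 35556 probe sets carried a single symbol, for 19938 genes. Levels are given in units, the natural-scale value of the deposited log2 signal, and 26 of the 32 receptors had a mean above 85 units, the expression minimum of the study's methods. The signal of a probe set depends on its probes, so levels were compared between arrays for 1 gene. Across genes, units were only set against the same minimum and, for cell type markers, summed. They were not read as relative amounts of mRNA.

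The study followed the livers of male C57/BL6 mice, 9 to 11 weeks old at the start of housing, through a day of 12 h light and 12 h dark. Zeitgeber time (ZT) counts hours from lights on, food was offered from ZT12 to ZT24 for the last 7 days, and livers were taken every 4 h from ZT02 to ZT26. Equal amounts of RNA (500 ng a liver) of 5 mice made up the pool of a time point, which went on 1 Affymetrix Mouse Gene 1.0 ST array, so the 7 arrays have no replicates and the spread between mice was not measured. ZT02 and ZT26 are the same clock time in different mice, and all the mice shared the genotype and the feeding schedule.

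Nuclear receptors are transcription factors that bind DNA and, in many cases, a small lipid-soluble ligand such as a steroid, a thyroid hormone, a retinoid, a fatty acid or an oxysterol. Many of them bind DNA together with a retinoid X receptor, whereas steroid receptors work mainly as pairs of their own kind and are held by heat shock chaperones until hormone arrives. In liver they are known for setting bile acid, lipid, glucose and drug metabolism, and the receptors of the clock loop itself, such as Nr1d1 and Nr1d2, were left out of the set.

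Promoters were examined for 30 of the receptors, Nr1h2 included, which had 50 start sites between them in RefSeq (GRCm38.p6). Each window covered the 250 bases before the start site. The 4 windows printed here, on the strand of the gene, belong to Ppard and Esr1, the receptors that passed the test below, to Nr4a1, which had the largest ratio between arrays, and to Nr1i3, a receptor of drug metabolism. Capitals mark CACGTG, the E-box bound by clock activators, or TGACG, the core of the element bound by CREB, which reads CGTCA on the other strand.
Ppard, chr17:28232504-28232753, + strand: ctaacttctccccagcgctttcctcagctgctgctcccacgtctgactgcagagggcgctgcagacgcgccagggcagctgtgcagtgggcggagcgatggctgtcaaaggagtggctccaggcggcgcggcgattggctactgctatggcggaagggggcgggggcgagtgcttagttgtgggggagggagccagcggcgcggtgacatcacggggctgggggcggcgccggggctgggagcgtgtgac
Esr1, first of 2 start sites, chr10:4611739-4611988, + strand: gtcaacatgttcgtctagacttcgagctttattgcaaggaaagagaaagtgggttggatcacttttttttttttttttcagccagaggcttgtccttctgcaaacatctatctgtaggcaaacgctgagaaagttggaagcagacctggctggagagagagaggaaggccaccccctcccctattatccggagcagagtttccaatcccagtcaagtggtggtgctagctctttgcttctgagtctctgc
Nr1i3, chr1:171213720-171213969, + strand: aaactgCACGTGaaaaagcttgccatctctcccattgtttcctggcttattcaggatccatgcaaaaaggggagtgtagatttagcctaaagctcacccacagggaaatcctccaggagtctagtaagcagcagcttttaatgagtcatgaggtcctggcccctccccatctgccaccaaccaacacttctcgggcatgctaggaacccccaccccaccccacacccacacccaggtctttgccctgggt
Nr4a1, chr15:101266596-101266845, + strand: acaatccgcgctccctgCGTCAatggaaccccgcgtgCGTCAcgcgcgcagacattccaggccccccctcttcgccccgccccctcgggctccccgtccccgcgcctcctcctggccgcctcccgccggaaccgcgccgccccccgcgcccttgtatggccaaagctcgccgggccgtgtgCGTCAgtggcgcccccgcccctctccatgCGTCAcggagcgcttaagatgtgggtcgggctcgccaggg
The Nr1i3 window held CACGTG, at 244 bases before the start. This motif was also found in a window of Rara (10 bases before the start) and a window of Thrb (193 bases), neither printed here. The Nr4a1 window held 4 copies of TGACG, at 233, 213, 69 and 40 bases before the start, all in the CGTCA orientation. None of the 5 motifs searched was found in the Ppard and Esr1 windows. At least 4 copies of TGACG were found in 45 of 32851 promoters in the annotation (0.137%), and 3 of these 45 belonged to Nr4a1, Nr4a2 and Nr4a3. The shares of most motifs were close to those of promoters at large. CACGTG was in 6.0% of the 50 against 6.02% of all promoters, AGGTCA (the receptor half-site) in 8 of the 50 against 4607 of 32851, and TGACG in 20.0% against 17.8%. TTATGTAA, bound by PAR bZip factors, was in none of the 50 against 0.819% of all promoters, and TTATGCAA in 2.0% against 0.694%. All were counted on both strands; a match is only a run of letters, and binding was not measured here. The median GC content was 60.2% in the receptors' windows and 52.4% in all promoters.

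**Figure D1:**
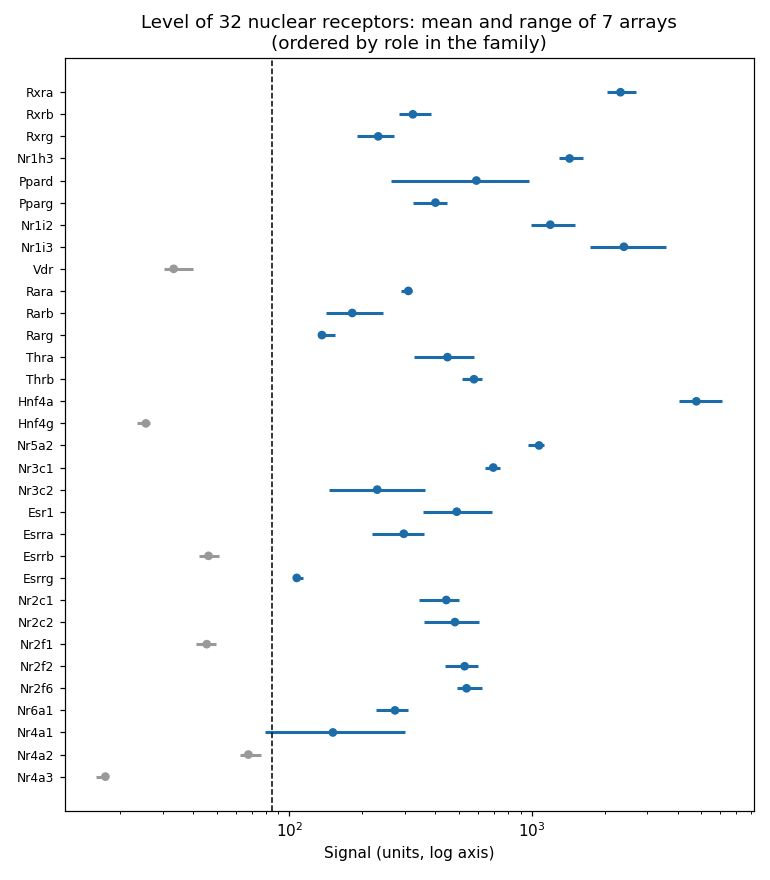
Mean signal (points) and the lowest to highest of 7 arrays (bars) of the 32 receptors in units on a log axis, ordered by role. The dashed line marks 85 units, with 26 receptors above it in blue and 6 at or below it in grey; the length of each bar is the range over the day.

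The 6 receptors below the minimum were Nr4a2, Esrrb, Nr2f1, Vdr, Hnf4g and Nr4a3. Their means were 67.7, 46.3, 45.6, 33.3, 25.6 and 17.4 units, and no test was made of them. The vitamin D receptor Vdr, for instance, lay between 30.2 and 39.8 units over the 7 arrays. The receptors just above the line were Esrrg with a mean of 107.2 units and Rarg with 136.2 units. For the 26 above it, a 24 h cosine was fitted to the log2 values. Its amplitude is the log2 distance from mean to peak, given with its standard error, and the peak to trough fold and peak time follow from it. Receptors were called rhythmic at an adjusted p under 0.05 in limma over all 12076 expressed probe sets, each with 4 residual degrees of freedom.

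By this test 2 of the 26 receptors were rhythmic, Ppard and Esr1. This is 7.69% of them, against a background of 4.47% of all probe sets tested. Both calls were lost with a minimum of 43 units (adjusted p 0.06 for Ppard and 0.0615 for Esr1) or none (0.1 for each), on the natural scale (0.0997 and 0.118), and by Fisher's test for one period (0.237 and 0.228). At an unadjusted p under 0.05 there were 8 of 26 (30.8%), with Nr1i2, Nr1i3, Thra, Esrra, Nr2c2 and Nr4a1 added, against a background of 25.7%. Both shares were near the background, so these limma counts did not set the receptors apart from other expressed genes. The size of the swing stood further off. The highest array exceeded the lowest by more than 1.5 times in 11 of 26 receptors (42.3%), against 16.3% of all probe sets, and the median amplitude was 0.16 (quartiles 0.11 and 0.29) against 0.09 (0.05 and 0.17). The study's thresholds for mRNA join that ratio above 1.5 to an unadjusted p under 0.25 in Fisher's test. By them 9 of 26 receptors were called, against 13.6% of all probe sets. These shares and amplitudes are descriptions of the set, not tests.

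**Figure D2:**
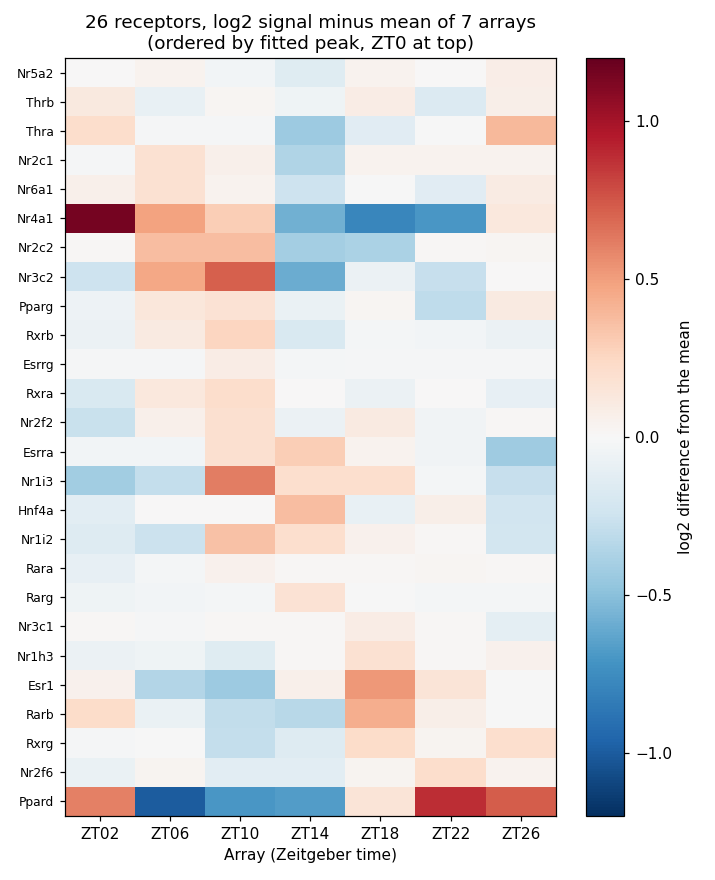
Log2 signal of the 26 receptors above the minimum at each of the 7 time points, minus the mean of the gene, with 1 array per column and 1 receptor per row, ordered by fitted peak time. Ppard is low at ZT06 to ZT14 and high at ZT22 and ZT26, Nr4a1 is low at ZT14 to ZT22 and high at ZT02, and most other rows are pale, with a median highest to lowest ratio of 1.4.

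The retinoid X receptors, the shared partners of many of the others, varied little. Rxra had 2038, 2517, 2686, 2324, 2212, 2324 and 2172 units from ZT02 to ZT26, with its highest value at ZT10 and an amplitude of 0.14 ± 0.05. None of the 3 passed the test. Rxrb was also highest at ZT10, with 385 units against a lowest value of 283 units at ZT14, whereas Rxrg was lowest at ZT10 (191 units) and highest at ZT18 (270 units). Their adjusted p-values in limma were 0.278 for Rxra, 0.495 for Rxrb and 0.26 for Rxrg.

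Among the lipid sensors that pair with them, Ppard (PPAR delta, a fatty acid receptor known for oxidative metabolism) had 795, 262, 324, 331, 586, 970 and 869 units from ZT02 to ZT26. Its mRNA was low from ZT06 to ZT14, rose through the dark and was highest at ZT22, and both arrays of the early light were high. The cosine gave an amplitude of 0.98 ± 0.15, a peak to trough fold of 3.87 and a peak at ZT22.4 ± 0.58 h (SE), with an adjusted p of 0.0424 in limma. Pparg, the relative that drives fat cell formation, had 381, 439, 449, 378, 403, 324 and 431 units, an amplitude of 0.17 ± 0.07 and an adjusted p of 0.277. Its lowest array was ZT22, the one at which Ppard was highest. Nr1h3, the oxysterol receptor LXR alpha, ranged from 1294 units at ZT10 to 1634 units at ZT18 with an adjusted p of 0.271.

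The 2 receptors of foreign compounds were both highest at ZT10. Nr1i3, known as CAR, had 1743, 1909, 3576, 2677, 2681, 2305 and 1920 units. It was low at ZT02, ZT06 and ZT26 and highest at ZT10, with the arrays of the dark in between. The highest array was 2.05 times the lowest, the amplitude was 0.38 ± 0.10 with a fitted peak at ZT13.6, and the adjusted p in limma was 0.13. Nr1i2, the pregnane X receptor, had 1064, 991, 1505, 1364, 1226, 1193 and 1008 units, with its peak at ZT13.9, an amplitude of 0.24 ± 0.07 and an adjusted p of 0.146. Neither passed the test, and in both the fitted peak lay later than the highest array. In RefSeq the Nr1i3 gene overlaps Tomm40l, as Nr1h3 does Acp2, Esrra does Trmt112 and Nr2c2 does Mrps25.

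The retinoic acid and thyroid hormone receptors included some of the flattest profiles. Rara stayed between 288 and 319 units (amplitude 0.03 ± 0.03, upper 95% bound 0.11). Thrb, the main thyroid hormone receptor of liver, lay between 515 and 624 units with an amplitude of 0.01 ± 0.06 and an upper bound of 0.15. Rarg lay between 131 and 154 units. The amplitude was larger for Thra, with 513, 441, 440, 326, 401, 444 and 578 units. It was lowest at ZT14 and high on both arrays of the early light, with an amplitude of 0.29 ± 0.06, a peak at ZT2.47 and an adjusted p of 0.0832 in limma, so it did not pass. Thra overlaps Nr1d1 on the opposite strand in RefSeq, and Nr1d1 had its fitted peak at ZT7.18. Rarb, a retinoic acid receptor, had 207, 169, 146, 142, 243, 187 and 178 units and did not pass (amplitude 0.28 ± 0.10, adjusted p 0.248).

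Neither of the expressed receptors Hnf4a and Nr5a2 passed the test. Hnf4a, a main regulator of liver genes, had 4356, 4761, 4765, 6113, 4451, 4979 and 4049 units. Only the ZT14 array stood clear of the other 6, and the adjusted p was 0.324. Nr5a2 (LRH-1, known for its part in bile acid synthesis) lay between 967 and 1126 units, with an amplitude of 0.07 and an upper 95% bound of 0.15.

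The steroid receptors differed among themselves. Esr1, the oestrogen receptor alpha, had 498, 378, 355, 502, 688, 533 and 479 units from ZT02 to ZT26. It was lowest at ZT06 and ZT10 and highest at ZT18, with an amplitude of 0.42 ± 0.07, a peak to trough fold of 1.79, a peak at ZT19.6 ± 0.54 h and an adjusted p of 0.0441 in limma. Nr3c1, the glucocorticoid receptor, held 698, 684, 698, 699, 741, 698 and 640 units. Its amplitude was 0.06 ± 0.03 with an upper 95% bound of 0.14, although the hormone it binds is known to swing daily. Nr3c2, the mineralocorticoid receptor, had 186, 305, 362, 146, 210.0, 182 and 221 units. The highest array was 2.48 times the lowest, but these were the neighbours ZT10 and ZT14, a 24 h cosine fitted them poorly (amplitude 0.44 ± 0.18), and the adjusted p was 0.307.

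**Figure D3:**
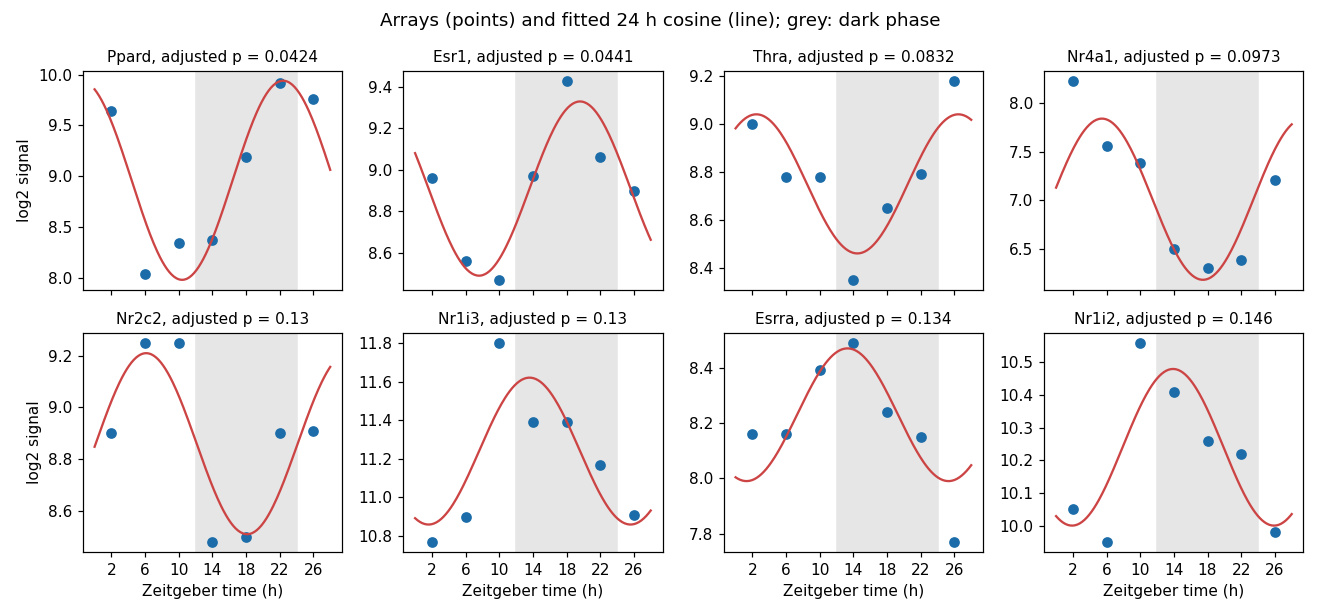
Log2 signal at the 7 time points (1 pool of 5 livers per point) for the 8 receptors with an unadjusted p under 0.05, with the fitted 24 h cosine as a line and the dark phase in grey; each panel has its own log2 scale. Ppard and Esr1, with adjusted p-values of 0.0424 and 0.0441, had their fitted peaks in the dark, and the points at ZT02 and ZT26 show how far different pools of the same clock time lay apart.

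Of the oestrogen-related receptors, which bind no known natural steroid and act on mitochondrial genes with the PGC-1 coactivators, Esrra had 287, 286, 336, 361, 302, 284 and 219 units. It was highest at ZT14 and lowest at ZT26. It did not pass (amplitude 0.24 ± 0.06, adjusted p 0.134), and ZT26 was 0.39 lower in log2 than ZT02 at the same clock time. Esrrg lay between 106 and 114 units, with 6 of 7 arrays within 0.02 log2 of their median.

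Among the orphan receptors, Nr2c2 (TR4) had 479, 607, 607, 358, 363, 479 and 480.0 units. It formed a step, high at ZT06 and ZT10 and low at ZT14 and ZT18, with an amplitude of 0.35 ± 0.09, a peak at ZT6.13 and an adjusted p of 0.13. Its relative Nr2c1 (TR2) had its highest value, 503 units, at ZT06 and its lowest, 344 units, at ZT14, with 454 units on each of ZT18, ZT22 and ZT26. Nr2f2, Nr2f6 and Nr6a1, a COUP transcription factor, a more distant relative of it and the germ cell nuclear factor, had amplitudes of 0.10, 0.12 and 0.15 and did not pass.

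Nr4a1 is an immediate early gene, switched on within minutes by cAMP and other signals, and was the only NR4A receptor above the minimum. It had 300.2, 189, 167, 90.3, 79.0, 83.1 and 149 units from ZT02 to ZT26. The value was highest at ZT02, smaller at ZT06 and ZT10, lowest on the 3 arrays of the dark and in between at ZT26. The highest array was 3.8 times the lowest, the amplitude was 0.83 ± 0.19 and the peak ZT5.45, yet the adjusted p in limma was 0.0973. Nr4a1 passed the minimum by its mean of 151.1 units. Its ZT18 and ZT22 values (79.0 and 83.1 units) lay below that minimum, and its ZT14 value (90.3 units) just above. The ratio and the amplitude therefore rest on a trough near the minimum, and its depth is uncertain. The ZT26 pool was 1.01 lower in log2 than the ZT02 pool, against a median absolute difference of 0.12 for the 26 receptors and 0.09 for all probe sets. Its relatives were below the minimum, so that no daily shape was read from them. Nr4a2 lay between 62.3 and 76.1 units, highest at ZT14, and Nr4a3 between 16.0 and 17.7 units, although the promoters of all 3 carry repeated TGACG.

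**Figure D4:**
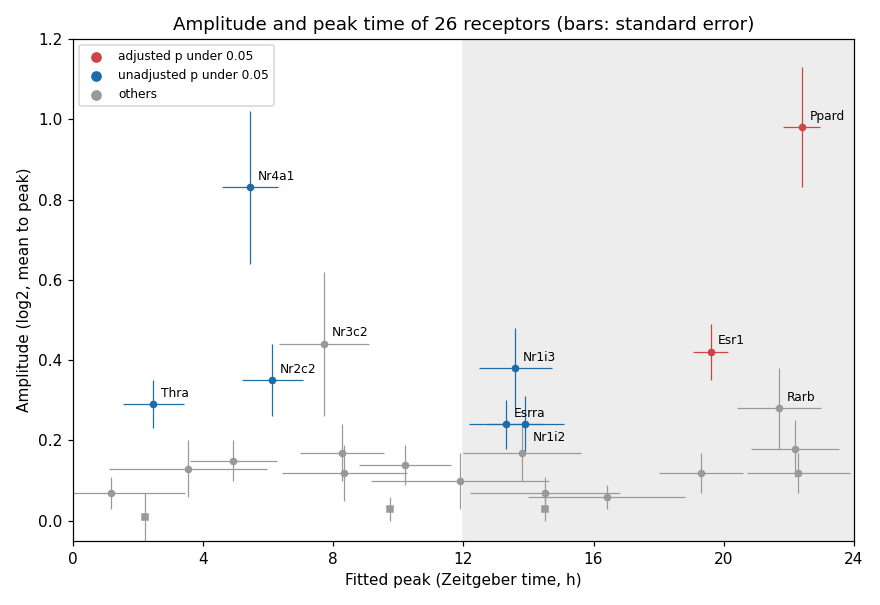
Fitted amplitude (log2, with standard error) against peak time in ZT hours for the 26 receptors, with receptors called at an adjusted p under 0.05 in red, the others at an unadjusted p under 0.05 in blue and the rest in grey; squares have no bar for peak time and the dark phase is shaded. Ppard at 0.98 and Nr4a1 at 0.83 lie above the rest, and the peaks are spread around the day.

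The fitted peaks were spread over the day. Those of 6, 7, 7 and 6 receptors fell in the 6 h bins ZT0 to ZT6, ZT6 to ZT12, ZT12 to ZT18 and ZT18 to ZT24, against 23.9%, 24.9%, 27.0% and 24.1% of all probe sets. These counts include flat profiles with a poorly defined peak (standard error 18.1 h for Thrb and 4.11 h for Rara), so they cannot show whether receptors share a time. At an unadjusted p under 0.05 in limma the bins held 2, 1, 3 and 2 receptors, against 25.8%, 22.5%, 28.6% and 23.1% of such probe sets. Single arrays were less even. The ZT10 array was the highest in 10 of 26 receptors (38.5%), against 17.9% of all probe sets, and the ZT14 array the lowest in 10 of 26 (38.5%), against 17.2%. Rxrb, Nr3c2, Esrrg and Nr2c2 had both, 4 of 26 against 2.22% of all probe sets. Of these, Esrrg was nearly flat, with 6 of 7 arrays within 0.02 log2 of their median. The ZT14 value was lower than the ZT10 value by a median of 0.11 in log2 over the receptors, against a median of 0.00 over all probe sets. This step falls between the last array of the fast and the first after food was given, but each side is 1 array of 1 pool, and feeding, darkness and array cannot be told apart.

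Both calls were lost in most fits with 1 array left out. When each array was left out in turn, Ppard was called only without ZT06, with adjusted p-values in limma between 0.0109 and 0.137, and Esr1 only without ZT22, between 0.0231 and 0.125. Their amplitudes stayed between 0.84 and 1.21 for Ppard and between 0.34 and 0.52 for Esr1. Their fitted peaks moved by at most 1.01 h for Ppard and 0.431 h for Esr1. Over all probe sets the calls with 6 arrays numbered between 13 and 312, against 540 with 7 arrays, so the loss of calls was not particular to these receptors.

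**Figure D5:**
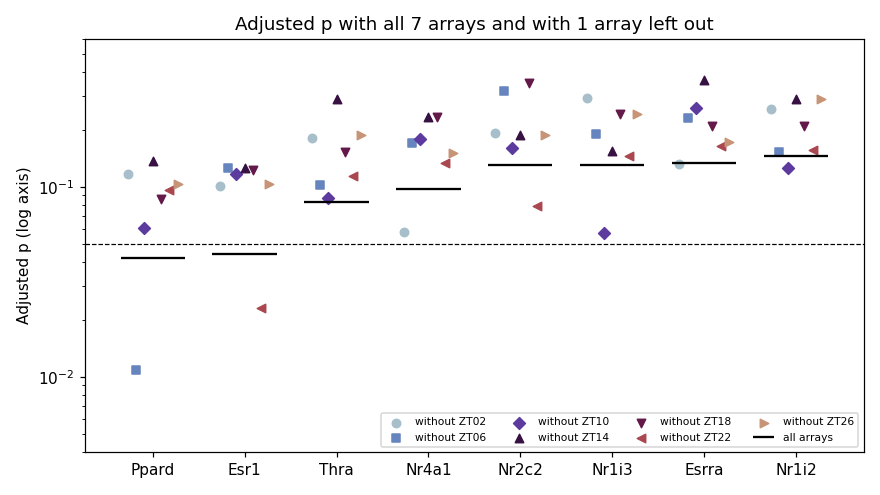
Adjusted p (limma, log axis) of the 8 receptors with an unadjusted p under 0.05, with all 7 arrays (black lines) and with each array left out in turn (symbols); the dashed line is 0.05. Below that line with an array left out lie only Ppard without ZT06 (0.0109) and Esr1 without ZT22 (0.0231).

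Marker mRNA of other liver cells also varied between the arrays. In whole liver, fewer cells of a type and less RNA per cell cannot be told apart. The 7 hepatocyte markers, none of them called, summed to between 94227 units at ZT10 and 97544 units at ZT02, a 1.04-fold range. The summed Kupffer cell markers ranged from 4472 units at ZT10 to 7074 units at ZT26, with 4 of 8 tested called rhythmic (C1qb, Adgre1, Clec4f and Vsig4, with peaks between ZT22.9 and ZT23.6). Endothelial markers summed to between 6515 units at ZT10 and 8371 units at ZT22 (0 of 8 called), and stellate cell markers to between 9251 units at ZT10 and 10885 units at ZT22. The 2 of 9 stellate cell markers called did not run together, with Pdgfrb at a peak of ZT1.33 and Hand2 at ZT12.1, and Dcn alone made up 4439 of the 9251 units at ZT10. Sums over the cholangiocyte and lymphocyte markers were also lowest at ZT10 and highest at ZT26, at 389 and 661 units and at 387 and 587 units, with none of the 1 and 2 tested called. In the cholangiocyte list this range was mostly that of Sox9, with 190.1 units at ZT10 and 449 units at ZT26. Only 1 of 4 cholangiocyte markers and 2 of 6 lymphocyte markers with a probe set had a mean above 85 units. The sums at ZT18 and ZT22 were above that at ZT10 in every marker list. This order held for the hepatocyte markers too (94227 units at ZT10, 96045 at ZT18 and 95814 at ZT22). Their range was 1.04-fold, against 1.18-fold to 1.7-fold in the other lists. The same order was found in 8 of 26 receptors (30.8%), against 35.7% of all probe sets. The 8 were Rxrg, Nr1h3, Ppard, Rarb, Rarg, Nr5a2, Esr1 and Nr2f6, and the part of the other cells in these profiles was not tested.

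The receptors' pathways were followed in 11 lists, of which 94 genes were expressed (Esrra, itself in the set, among them). Of these, 13, all outside the set, were rhythmic in limma, against a background of 4.47% of all probe sets. The list of other receptors of the same gene family held 4 of the 13 (Nr1d1, Nr1d2, Ppara and Nr0b2). None of the cofactors that carry out receptor action was called. None of 9 coactivators and none of 6 corepressors passed, although 2 and 1 had an unadjusted p under 0.05, and their median amplitudes were 0.07 and 0.10. Of 7 steroid receptor chaperones 1 passed. This was Fkbp5, itself a well known glucocorticoid target, which had 179, 212, 361, 785, 330, 214 and 156 units. It was highest at ZT14, with a peak to trough fold of 3.71, a peak at ZT13.9 and an adjusted p of 0.031, while the glucocorticoid receptor mRNA had an amplitude of 0.06.

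The targets that passed had fitted folds between 1.44 and 5.28. Of 10 xenobiotic receptor targets, Cyp2b10 and Alas1 passed. Cyp2b10, a classical CAR target, had 440, 214, 249, 517, 1035, 690 and 529 units, highest at ZT18 with a fitted fold of 4.52 and a peak at ZT19.6, against ZT13.6 for Nr1i3. Alas1, which makes the first intermediate of haem, peaked at ZT13.6 with a fold of 4.56. Of 9 ligand-handling enzymes, the retinoic acid degrading Cyp26a1 passed with a fold of 4.55 at ZT21.4 and the retinaldehyde reductase Dhrs3 with 1.79 at ZT0.35. Of 11 glucocorticoid receptor targets, Tsc22d3 (2.07-fold, ZT17.0) and Angptl4 (2.64-fold, ZT8.29) passed. The fitted peaks of Tsc22d3 and Angptl4 were hours apart, and whether the 11 targets moved together was not tested.

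Of 6 thyroid hormone receptor targets, Thrsp, a regulator of fat synthesis, passed with 1356, 1211, 2805, 5414, 5144, 2979 and 1247 units. It was high in the dark, when the mice ate, with a fold of 5.28, a peak at ZT16.1 and an adjusted p of 0.00248, the lowest among the 94. Idh3a, of the citric acid cycle, was the only 1 of 9 targets of ERR and PGC-1 to pass (1.44-fold, ZT14.5). None of 10 LXR targets passed, although 4 had an unadjusted p under 0.05. Among them Abcg5 and Abcg8, the paired sterol transporters, had amplitudes of 0.65 and 0.83 with adjusted p-values of 0.0663 and 0.0944. None of 11 HNF4A targets passed, 0 had an unadjusted p under 0.05, and their median amplitude was 0.04.

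Within the same gene family, 7 further receptors outside the set were expressed, of 15 listed, and 4 of them were rhythmic, with a median amplitude of 0.46. The clock receptors Nr1d1 and Nr1d2 had folds of 27.1 and 7.24. Ppara, the main fatty acid receptor of liver, had a fold of 1.89 with a peak at ZT10.5, against 3.87 and ZT22.4 for Ppard, so the fitted peaks of these relatives lay on opposite sides of the day. Nr0b2 (SHP, a corepressor of LRH-1 and HNF4A) had a fold of 2.49 with a peak at ZT1.57. Nr1h4, the bile acid receptor FXR, did not pass, with an amplitude of 0.25 and an adjusted p of 0.0608.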

How the data were processed

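Liver RNA of 7 time points was hybridised to 1 Mouse Gene 1.0 ST array each, from a pool of 5 mice. The authors deposited log2 values, for which the submitters' processing notes name RMA and Affymetrix Expression Console 1.1.2637.26569. RMA corrects background, normalizes between arrays and summarizes probes. Array medians were 6.37 to 6.40 and the mean correlation with the other arrays 0.991 to 0.993. Of 35556 probe sets, 21789 had a single symbol, 1621 several and 12146 none in the platform annotation. The number of arrays limits the precision. A 24 h cosine was fitted with limma 3.58.1 in R 4.3.3 (lmFit, eBayes, joint moderated F-test) and adjusted by Benjamini and Hochberg over the 12076 single-symbol probe sets with a mean above 85 units. Standard errors and 95% bounds of amplitude and peak are approximate, from the coefficients. Every receptor was named, and of each other list up to 3 called genes with the lowest p; Vsig4, the fourth called gene of its list, Ppara, likewise the fourth of its own, Dcn, Sox9, Abcg5, Abcg8 and Nr1h4 were named after their values were seen. The fit was tested on simulated data. Alternatives were low-value minimums, test, scale, normalization and each array left out. The receptors and lists were chosen with earlier results of these data known. The build of the probe design is not given in the sources used here, and Pol II and histone data were not used here.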

Additional observations from a re-analysis of the deposited data

How the results depend on the processing

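The number of receptors above the minimum was 26, with 29 at 43 units and 23 at 170 units, and 26 with a geometric mean. The 2 rhythmic receptors, Ppard and Esr1, were called also with a minimum of 170 units, with trend and robust shrinkage and with quantile normalization. Centring each array on its median gave 3, with Thra added (adjusted p 0.0468 in limma), while 7.87% of all probe sets were called. The count covered no receptor outside the 26 above 85 units, so those admitted only by a lower minimum were left out. It was 0 with no minimum and with a minimum of 43 units (8 at an unadjusted p under 0.05 in each, with 0.262% and 2.05% of all probe sets called). It was also 0 by Fisher's test for one period (3 unadjusted, and 0 of all probe sets adjusted) and 0 on the natural scale (5 unadjusted, with 0.563% of all probe sets called). By the methods' thresholds, an unadjusted p under 0.25 in Fisher's test with the highest array above 1.5 times the lowest, it was 9 of 26, against 13.6% of all probe sets, and it was 0 to 1 when each array was left out in turn. The adjusted p of Ppard and Esr1 was 0.1 and 0.1 with no minimum, 0.06 and 0.0615 at 43 units, 0.237 and 0.228 by Fisher's test, and 0.0997 and 0.118 on the natural scale. Of the genes in the pathway lists, other receptors of the family included, 13 were called. The count, again over the 94 genes above 85 units only, was 5 with no minimum, 0 by Fisher's test, 28 by the methods' thresholds and 2 on the natural scale. It was 3 to 9 with each array left out. A minimum lower or absent adjusts over more probe sets, and the other causes were not tested. A second probe set could not be tried, since no receptor had more than 1. No paired analysis was possible because each time point has 1 array. With 7 arrays, small rhythms of receptors with dim probe sets may be missed.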
